A study of Mus musculus with 4 samples.

Results

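The genes described here are 10 marker genes of Kupffer cells and other macrophages, read in RNA from whole mouse liver: Clec4f, Cd5l, Vsig4, C1qa, C1qb, C1qc, Csf1r, Cd68, Fcer1g and Tyrobp. They were picked by symbol, with no threshold on a measured value, but with earlier results of these data known. All 10 were among the 12883 genes of the input table, and 4 of them, Csf1r, Fcer1g, Tyrobp and Vsig4, were among the 7569 transcripts of the immunoprecipitate table. The other 6 were not analysed here in the immunoprecipitate.

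The study set liver biopsies of Fto knockout mice beside those of wild-type mice, both on a C57/Bl6 background. The protein made from Fto removes methyl groups from adenosines in RNA, and miCLIP crosslinks RNA to an antibody that binds such adenosines before the bound fragments are cloned. There were 4 groups: knockout immunoprecipitate, knockout input, wild-type immunoprecipitate and wild-type input, each stated to have 3 replicates. The labels give neither the knockout allele nor the sex or age of the mice, nor whether each replicate was its own animal. The p-values therefore cover only the spread between the libraries, part of which may be technical. What is deposited is 1 comparison table for the input and 1 for the immunoprecipitate, each with the authors' mean normalized count over all libraries, log2 fold change and p-value. Values of single libraries were not analysed here, so the depth behind each value is unknown.

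Kupffer cells are the resident macrophages of the liver. They sit in the sinusoids, where they take up complement-coated particles, dying red cells and modified lipoproteins from the blood. Their survival depends on the growth factor receptor encoded by Csf1r, and they are a source of the C1q subunits, which begin the classical complement pathway. In mouse, Clec4f is restricted to Kupffer cells, whereas Fcer1g and Tyrobp encode signalling adaptors that natural killer cells, neutrophils and mast cells use as well.

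The antibody also binds the methylated adenosine found next to the cap of an mRNA, so the annotated first transcribed base is shown here for 7 marker genes. Csf1r, Tyrobp and C1qa are not shown. RefSeq promoters of build GRCm38.p6 were used, matched by symbol for Fcer1g, Cd5l, C1qb, C1qc, Clec4f, Cd68 and Vsig4. Each window holds 40 bases, 20 before the annotated start and 20 from it on, 5′ to 3′ on the strand of the gene, with the annotated first transcribed base in capitals.
Clec4f: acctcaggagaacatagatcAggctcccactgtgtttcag
Cd5l: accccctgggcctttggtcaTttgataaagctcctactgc
Vsig4: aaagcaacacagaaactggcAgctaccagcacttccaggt
C1qb: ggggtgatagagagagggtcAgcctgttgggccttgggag
C1qc: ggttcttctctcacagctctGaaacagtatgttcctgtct
Cd68: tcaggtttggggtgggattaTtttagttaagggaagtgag
Fcer1g: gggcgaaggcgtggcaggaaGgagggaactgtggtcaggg
The windows lie at chr6:83656097-83656136 on the minus strand for Clec4f, chr3:87357861-87357900 on the plus strand for Cd5l and chrX:96293419-96293458 on the minus strand for Vsig4. Those of C1qb and C1qc lie at chr4:136886181-136886220 and chr4:136892895-136892934, both on the minus strand, that of Cd68 at chr11:69666151-69666190 and that of Fcer1g at chr1:171234330-171234369, both on the minus strand. The annotated first base was A in 3 of these 7 windows, those of Clec4f, Vsig4 and C1qb, against 34.4% of all 32851 promoters in the table. The window of C1qc lies wholly inside its gene span, which ends at 136892936, so its marked base is not the outermost annotated start. An annotated start is a description and does not show where transcription began in these livers.

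The direction of the input comparison is not given in the table header. It was read as knockout over wild type from Fto itself, which had a log2 fold change of −1.49 (SE 0.27, DESeq2 adjusted p = 3.52e-04, mean 55.8) in the authors' deposited table, so the sign for Fto is no separate result. Of 12865 genes with an adjusted p there, 5 were called at an adjusted p under 0.05, which is 0.0389%. The macrophage genes were read against this background. The fold changes in the input table are shrunken, and their standard errors did not exceed 0.302. The median standard error was 0.30 at means from 10 to 20, and lower on both sides of that range, at 0.21 for means up to 2 and at 0.23 for means over 500. A small standard error at a low mean is therefore no sign of precision, and folds of low genes are pulled towards 0.

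In the input, none of the 10 macrophage genes was called in the authors' deposited table (0 of 10, each with a DESeq2 adjusted p of 0.9998). At an unadjusted p under 0.05 there was 1 of 10, Fcer1g, against 2.21% of all genes. The log2 fold changes were above 0 in 4 and below 0 in 6, with a median of −0.02 beside a median of 0.02 over all genes. Weighted by the mean count of each gene, the average was −0.01. The 95% intervals, computed as 1.96 standard errors on each side under a normal approximation, included 0 for 9 of the 10. In whole liver, fewer macrophages and less RNA per macrophage cannot be told apart. Together the 10 genes made up 0.0495% of the summed means of the input table, and their means ran from 9.70 to 240.

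**Figure D1:**
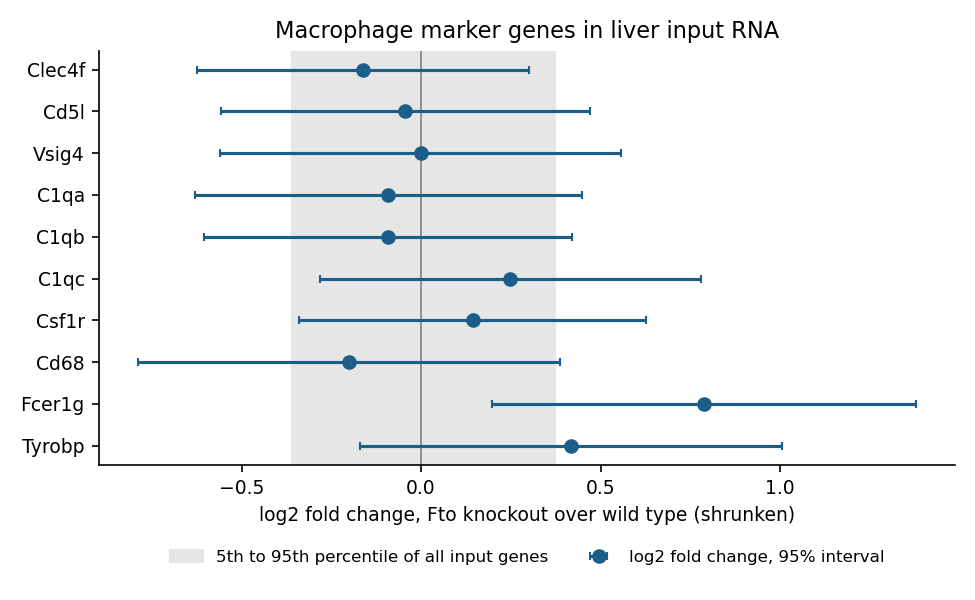
Log2 fold change of each marker gene in the input, Fto knockout over wild type, as points with 95% intervals; the grey band spans the 5th to 95th percentile of all input genes, −0.36 to 0.37. Fcer1g at 0.79 and Tyrobp at 0.42 lie right of the band and the other genes within it, and the interval of Fcer1g alone leaves out 0.

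Among the marker genes described here, those most closely tied to Kupffer cells, Clec4f, Cd5l and Vsig4, lay near 0. Clec4f, a C-type lectin receptor of mouse Kupffer cells, had the highest mean of the group at 240 and a log2 fold change of −0.16 (SE 0.24) in the authors' deposited table. Its 95% interval ran from −0.62 to 0.30, which corresponds to a knockout level between 0.65 and 1.23 times that of wild type on this shrunken scale. Cd5l, which encodes a scavenger protein that macrophages secrete into the blood, had a mean of 189 and stood at −0.04 (SE 0.26, 95% interval −0.56 to 0.47) in the authors' deposited table. Vsig4, the receptor by which Kupffer cells bind complement-coated particles, had a mean of 32.7 and a fold of 0.999 (95% interval 0.68 to 1.47) in the authors' deposited table. Among all input genes these log2 fold changes lay at percentiles 21.1 for Clec4f, 38.6 for Cd5l and 46.3 for Vsig4. The intervals leave room for changes in either direction and do not show that the levels were alike.

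C1qa, C1qb and C1qc encode the chains that assemble into C1q, and their genes are neighbours on chromosome 4. In GRCm38.p6, which matches the mm10 build named in the submitters' processing notes, C1qb spans 136880126 to 136886200, C1qc spans 136889801 to 136892936 and C1qa spans 136895916 to 136898844. The gaps between them are 3600 and 2979 bases. C1qa had a mean of 85.0 and a log2 fold change of −0.09 (SE 0.28), and C1qb a mean of 92.9 and −0.09 (SE 0.26) in the authors' deposited table. C1qc had a mean of 68.4 and stood at 0.25 (SE 0.27) in the authors' deposited table. The sign of C1qc thus differs from that of its neighbours, but its 95% interval, −0.28 to 0.78, overlaps those of C1qa (−0.63 to 0.45) and C1qb (−0.61 to 0.42). The difference between the chains was not tested.

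Csf1r and Cd68 mark macrophages in general. Csf1r, the receptor for the growth factors Csf1 and Il34, had a mean of 148 and a log2 fold change of 0.14 (SE 0.25, 95% interval −0.34 to 0.63) in the authors' deposited table. It overlaps the annotated genes Mir6983 and Gm52352, whose reads may not be separable from its own without strand. Cd68, a glycoprotein of the late endosome and lysosome, had the lowest mean of the group, 9.70, and stood at −0.20 (SE 0.30, 95% interval −0.79 to 0.39) in the authors' deposited table. It was the lowest fold change of the 10, at percentile 16.3 of all input genes.

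The adaptor genes stood highest. Fcer1g encodes the common gamma chain of activating Fc receptors, and Tyrobp encodes DAP12, the partner of Trem2 and related receptors. Both pass signals on to the kinase Syk through an activation motif in their tails. Fcer1g had a log2 fold change of 0.79 (SE 0.30, unadjusted p = 0.00877, DESeq2 adjusted p = 0.9998) at a mean of 11.0 in the authors' deposited table. Its 95% interval was 0.20 to 1.38, or 1.15 to 2.60 times the wild-type level. By unadjusted p it ranked 53 among all input genes, and its fold was at percentile 99.8. Of the 2000 genes with a mean from 10 to 20, 4 had a fold at least as high, Fcer1g included. Tyrobp followed at 0.42 (SE 0.30, unadjusted p = 0.164, 95% interval −0.17 to 1.01) at a mean of 19.2 in the authors' deposited table, at percentile 96.7. Both sit in the range of means where the standard error is highest, and neither passes the adjustment over all genes.

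**Figure D2:**
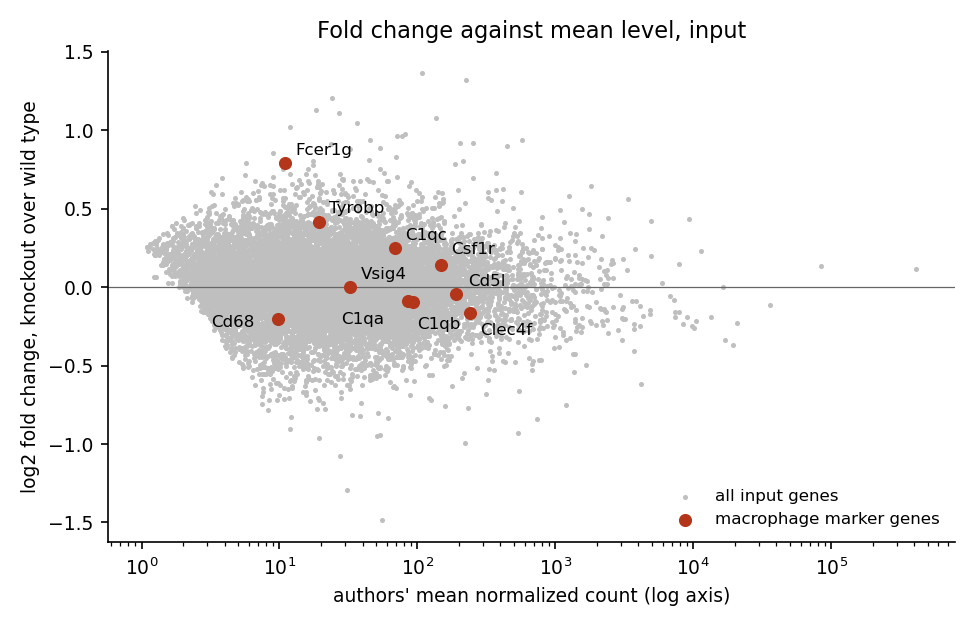
Log2 fold change (knockout over wild type) against the authors' mean normalized count on a log axis for all input genes in grey, with the 10 marker genes in red. The 6 markers with a mean of at least 50 lie between −0.16 and 0.25, while Fcer1g and Tyrobp, at means of 11.0 and 19.2, lie above them.

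The markers did not share a direction. The 6 genes with a mean of at least 50 ranged from −0.16 to 0.25 with a median of −0.07. The other 4 held both the highest values, Fcer1g and Tyrobp, and the lowest, Cd68, with a median of 0.21. Without Fcer1g and Tyrobp, an alternative chosen after their values were seen, the median of the remaining genes was −0.07.

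Other macrophage genes were read beside them. Of 17 further Kupffer cell markers, all measured in the input, 0 were called and 0 had an unadjusted p under 0.05. They ran from −0.37 to 0.49, with 6 above 0, 11 below 0 and a median of −0.01. Marco, a scavenger receptor, stood at 0.49 (SE 0.30), Timd4, which binds phosphatidylserine on dying cells, at 0.43 (SE 0.30) and C6, a complement gene that hepatocytes also express, at −0.15 (SE 0.28) in the authors' deposited table. Of 20 further pan-macrophage markers 0 were called and 0 had an unadjusted p under 0.05, with 12 above 0 and a median of 0.10. Lyz2, the lysozyme gene of myeloid cells, stood at 0.48 (SE 0.27), Adgre1, which encodes F4/80, at 0.43 (SE 0.27), and Mpeg1, whose product forms pores, at 0.03 (SE 0.25) in the authors' deposited table.

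Markers of recruited monocytes and lipid-associated macrophages lay higher. All 8 that were measured, of 15 listed, were above 0, with a median of 0.34 and 0 called. At an unadjusted p under 0.05 there was 1 gene, against 2.21% of all input genes. That gene was Ccr2, the chemokine receptor of blood monocytes, at 0.79 (SE 0.28, unadjusted p = 0.00469) and a mean of 5.69 in the authors' deposited table. Spp1, which bile duct cells also express, stood at 0.50 (SE 0.29) and Plac8 at 0.42 (SE 0.30) in the authors' deposited table. Genes above 0 made up 53.5% of the whole table. The median gene stood at 0.20 at means up to 2, where Gpnmb lies (mean 1.97), at 0.06 from 2 to 5 and between −0.03 and 0.02 in every range above that, where most of these markers lie. With 0 called, the count above 0 is a description. Class II antigen presentation genes were above 0 in 7 of 7, with a median of 0.41 and 0 called. Cd74, the invariant chain, stood at 0.56 (SE 0.29, mean 155) and H2-Ab1 at 0.96 (SE 0.29, unadjusted p = 0.00101) in the authors' deposited table.

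The partners of the marker genes gave no call in either direction. Of 15 measured genes for Fc receptors, partners of the adaptors and Syk signalling, 9 were above 0, with a median of 0.07 and 0 at an unadjusted p under 0.05. Fcgr1, a high-affinity IgG receptor that needs the Fcer1g chain, stood at 0.49 (SE 0.30) and Fcgr2b, an inhibitory receptor that endothelial cells of the sinusoids also carry, at 0.33 (SE 0.26) in the authors' deposited table. Of 14 C1 partners, complement components and receptors, 0 were called. C1s1, the protease that C1q activates through C1r, stood at −0.52 (SE 0.21, unadjusted p = 0.0147), C4b, its substrate, at −0.43 (SE 0.25) and C3 at 0.00 (SE 0.23), all genes that hepatocytes express, while Cd93 stood at 0.63 (SE 0.29, unadjusted p = 0.0295) in the authors' deposited table. Among 12 genes linked to Csf1r, its ligand gene Csf1 stood at 0.28 (SE 0.29) and Cebpa, a gene for a transcription factor also found in hepatocytes, at −0.52 (SE 0.21, unadjusted p = 0.0133) in the authors' deposited table. Of all input genes 53.5% were above 0. Of 26 phagosome and lysosome genes 19 were below 0, with a median of −0.09 and 0 called. The lowest p there was that of Stab1, a scavenger receptor of sinusoidal endothelium, at −0.50 (SE 0.23, unadjusted p = 0.0277) in the authors' deposited table.

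**Figure D3:**
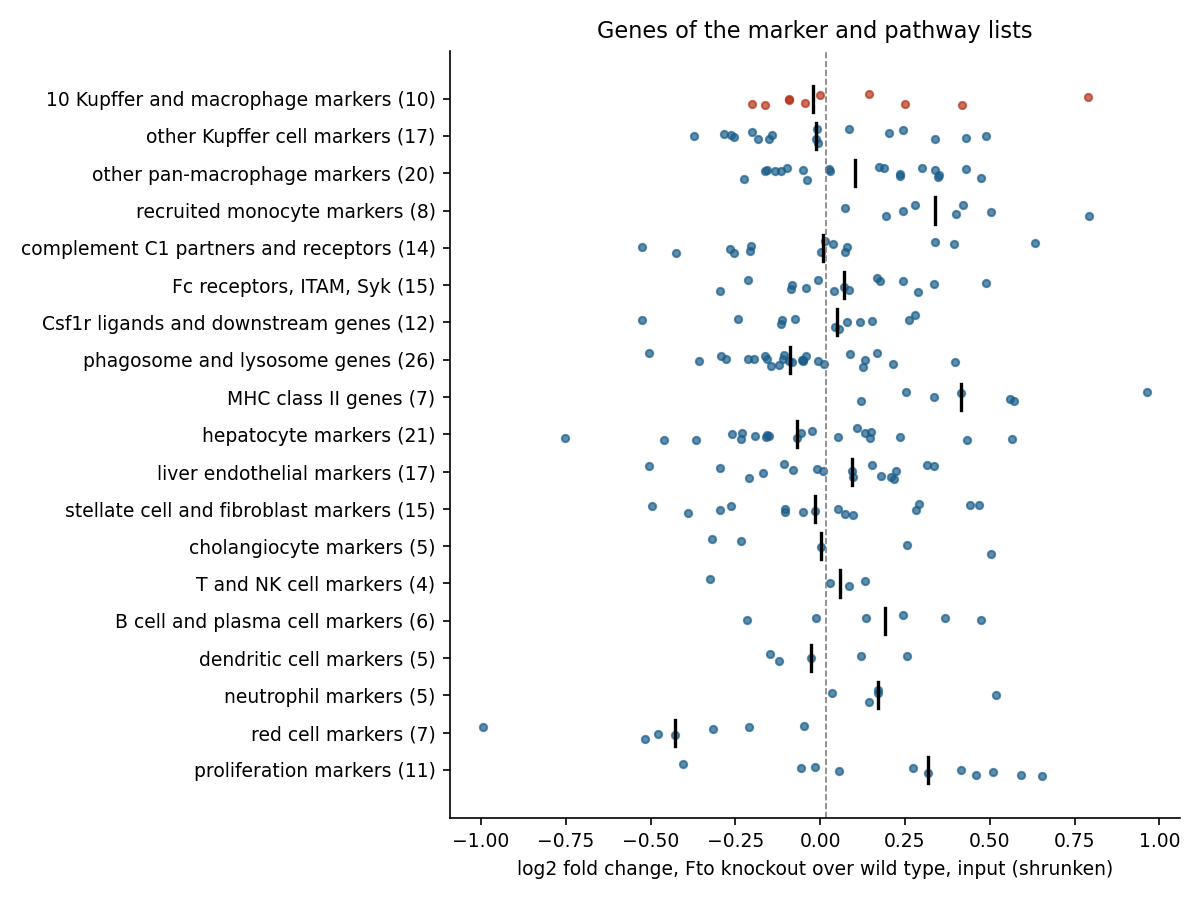
Log2 fold change in the input, knockout over wild type, of every measured gene in the marker and pathway lists, 1 list per row with the number of genes in brackets; the black bar is the median of the list and the dashed line the median of all input genes, 0.02. The 10 marker genes in red have a median of −0.02, beside medians of 0.34 for the recruited monocyte markers and 0.41 for the class II genes.

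Markers of other cell types that the biopsies could hold were set beside the adaptor genes, since Fcer1g and Tyrobp are also expressed outside macrophages. T and NK cell markers were measured for 4 of 17 genes, with a median of 0.06, and their defining genes had low means, 2.34 for Cd3e and 4.84 for Cd4. Neutrophil markers were measured for 5 of 13, all above 0 with a median of 0.17, and S100a9 stood at 0.52 (SE 0.26, mean 4.68) in the authors' deposited table. Medians were −0.07 for 21 hepatocyte markers, 0.09 for 17 endothelial markers, −0.02 for 15 stellate cell and fibroblast markers, 0.00 for 5 cholangiocyte markers, −0.03 for 5 dendritic cell markers and 0.19 for 6 B cell and plasma cell markers. Red cell markers were below 0 in 7 of 7, with a median of −0.43. Against 53.5% of all input genes, proliferation markers were above 0 in 8 of 11, with a median of 0.32. None of these genes was called, though 2 of the 7 red cell markers had no adjusted p. At an unadjusted p under 0.05 there were 2 higher and 1 lower among the hepatocyte markers, 2 higher among the proliferation markers, 1 higher among the neutrophil markers, 1 lower among the endothelial markers and 1 lower among the red cell markers. Over all input genes that share was 2.21%, either direction. The summed means of the hepatocyte markers made up 12.2% of the input table, those of the neutrophil markers 0.00108% and those of the T and NK cell markers 6.74e-04%. The part of these cells in the fold changes of Fcer1g and Tyrobp was not tested.

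In the immunoprecipitate, which holds RNA crosslinked to the antibody, 4 of the 10 genes had values, each as 1 transcript. Among protein-coding genes with input means from 50 to 100, 35.3% had an immunoprecipitate feature among those analysed here, and 0 of the 3 C1q genes did. From 20 to 50 the share was 28.8%, with Vsig4 as 1 of 1. From 100 to 250 the share was 47.7%, with Csf1r as 1 of 3 markers, and from 5 to 20 it was 21.4%, with Fcer1g and Tyrobp as 2 of 3. Between the tables, which were normalized separately and differ in counting by transcript and by gene, the ratio of immunoprecipitate mean to input mean was compared as a rank among 3737 coding genes. Fcer1g had a mean of 43.6 in the immunoprecipitate and 11.0 in the input, a ratio of 3.97 at percentile 98.7. Among the 470 coding genes with an input mean from 10 to 20, whose median ratio was 0.284, only 4 had a ratio at least that high, Fcer1g included.

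The other 3 markers had no such ratio. Tyrobp, with means of 4.06 and 19.2, had a ratio of 0.211, at percentile 32.1 of the same 470 genes. Vsig4, with means of 9.64 and 32.7, had a ratio of 0.295, at percentile 85.5 of the 876 genes with an input mean from 20 to 50. Csf1r, with means of 4.07 and 148, had a ratio of 0.0276, at percentile 29.1 of 523 genes from 100 to 200. Fcer1g, whose annotated first base is G, had no annotated gene overlapping its span at 171229572 to 171234349 on chromosome 1. The Fc receptor gene Fcgr4, also on that chromosome, had a ratio of 3.56, but an snRNA gene, Gm26110, lies within it, and whether its reads entered the count was not tested. Across coding genes with 1 annotated promoter, the median ratio was 0.0949 for 719 genes with A as the first base and 0.0936 for 1573 with another base.

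**Figure D4:**
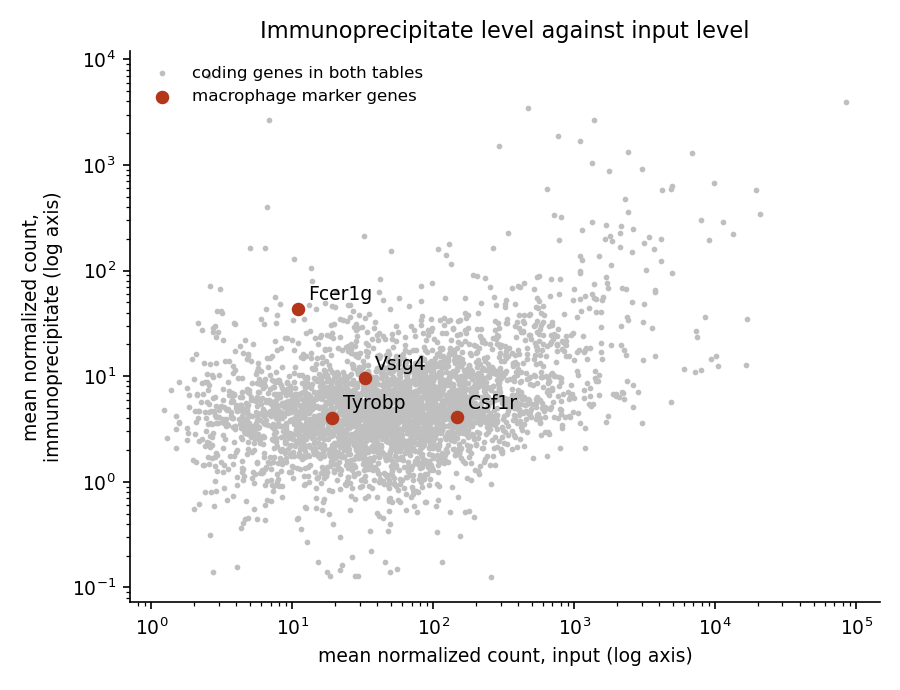
Mean normalized count in the immunoprecipitate against that in the input, both on log axes, for 3737 coding genes in grey and the 4 marker genes in both tables in red. Fcer1g, at 43.6 against 11.0, lies near the upper edge of the genes of its input level, and the other 3 lie within the cloud.

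Between knockout and wild type, none of the 4 transcripts was called in the immunoprecipitate. Of 2347 features with an adjusted p there, 110 were called, which is 4.69%, and Fcer1g and Vsig4 were the markers with an adjusted p. At an unadjusted p under 0.05 there were 0 of 4, against 10.4% of all features with a p. Neither the direction of this table nor the contrast behind its p-value is stated. It was read as knockout over wild type, as in the input, on the strength of a weak rank correlation between the tables (Spearman 0.17 across 693 genes with a mean of at least 10 in both, a description over genes that share libraries). Read the other way, every sign turns. The median feature stood at −1.59, and folds in this table are not shrunken.

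Fcer1g, the best covered of the 4, had a log2 fold change of 1.99 (SE 1.25, authors' adjusted p = 0.375) at a mean of 43.6 in the authors' deposited table. Its 95% interval ran from −0.47 to 4.45. Relative to the median feature its value was 3.58, with an interval from 1.12 to 6.04 that leaves out 0. Vsig4 stood at 5.72 (SE 2.43, authors' adjusted p = 0.517) at a mean of 9.64 in the authors' deposited table. Csf1r stood at 7.34 (SE 3.24, unadjusted p = 0.167) and Tyrobp at −4.90 (SE 2.48, unadjusted p = 0.0970), both at means near 4 and with no adjusted p in the authors' deposited table. Among features with means from 2 to 5 the 10th and 90th percentiles of the log2 fold change were −7.26 and 3.97, so Tyrobp lay within that range and Csf1r above it. The adaptor genes, both above 0 in the input, thus had opposite signs in the immunoprecipitate. Neither was called in either table, though Fcer1g had an unadjusted p under 0.05 in the input and Tyrobp had no adjusted p in the immunoprecipitate.

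**Figure D5:**
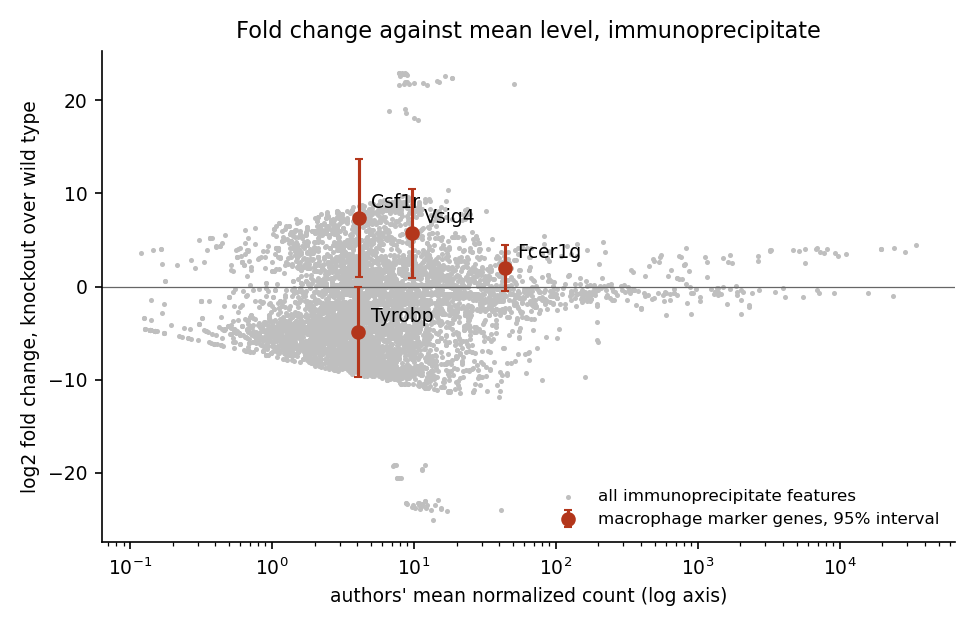
Log2 fold change (knockout over wild type, as read here) against the authors' mean normalized count on a log axis for all 7569 immunoprecipitate features in grey and the 4 marker transcripts in red with 95% intervals from the printed standard errors. Csf1r, Vsig4 and Fcer1g lie above 0 and Tyrobp below. The interval is widest for Csf1r and narrowest for Fcer1g, which has the highest mean.

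The printed fold and the authors' p do not give the same reading for these transcripts. The 95% intervals from the printed standard errors left out 0 for Vsig4 (0.96 to 10.48), Csf1r (0.99 to 13.69) and Tyrobp (−9.76 to −0.04). Adjusted over all features, the p-values from fold over standard error were 0.110 for Vsig4, 0.129 for Csf1r and 0.195 for Tyrobp (normal test with Benjamini-Hochberg adjustment), so none was called by that rule, against 10.8% of all features. These readings depend on the centring. The median used for it, −1.59, was further from 0 than that of features with means from 5 to 10, where Vsig4 lies (−0.82). From 20 to 50, where Fcer1g lies, the median was −1.03, and from 2 to 5, where Csf1r and Tyrobp lie, −1.81. Centring by features of like mean was not run. Relative to the median feature, the interval of Tyrobp, −8.16 to 1.55, included 0 and that of Fcer1g did not. By the same test on centred folds, an alternative added after the data were seen, Vsig4 was called (adjusted p = 0.0352), against 8.6% of all features, and Fcer1g (0.05005), Csf1r (0.0612) and Tyrobp (0.481) were not.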

How the data were processed

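RNA of knockout and wild-type liver was measured in 4 groups, each with 3 stated replicates. The authors deposited 1 comparison table for the input by gene and 1 for the immunoprecipitate by transcript. Per the file headers, these hold the mean normalized signal (a mean of scaled counts), the log2 fold change with its standard error, a test statistic (a score), and the p-value with its adjusted value. The submitters' processing notes name STAR, bedtools 2.25.0, DESeq2 and mm10 without their roles. Counting rules, model formula and depth per library are unknown, being not given in the sources used here. In the input the statistic equalled fold over standard error; in the immunoprecipitate it did not.

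Members and lists were chosen with earlier results of these data known. Genes were matched by symbol, with 12869 of 12883 input identifiers matched to current symbols. Called means an authors' adjusted p under 0.05. From each of 18 other lists, named genes were taken from the 3 with the lowest p and the one with the highest mean; Fcgr4 was named after its values were seen. Intervals are at 95%. Alternatives covered the adjustment, a minimum mean of 10 or 50, centring and weighting. Computation used Python 3.11.15, pandas 2.3.3 and scipy 1.17.1, and the adjustment was tested on simulated data.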

Additional observations from a re-analysis of the deposited data

How the results depend on the processing

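The count of called macrophage genes in the input stayed at 0 of 10 by the authors' adjustment, by Benjamini-Hochberg adjustment over the table, over genes with a mean of at least 10, and after centring; by unadjusted p it was 1, Fcer1g. Their median log2 fold change of −0.02 became −0.04 after centring, −7.94e-04 at a mean of at least 10, −0.07 at a mean of at least 50 and 0.01 with the C1q genes taken as 1, so its sign is not fixed. The count of 0 in the immunoprecipitate held by Benjamini-Hochberg adjustment over the table, by fold over standard error and among features whose mean reached 10. By fold over standard error after centring, added later, it was 1, Vsig4. Centring moved Fcer1g from 1.99 to 3.58, after which its interval left out 0, while that of Tyrobp came to include 0; the sign of all 4 transcripts held. Leaving out replicates was not run, and no paired analysis was possible because the tables used here carry 1 value per comparison and not 1 per library. Shrinkage limits what low means can show in the input, and the wide standard errors what the immunoprecipitate can show.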
